A study of Mus musculus with 10 samples.

Results

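The 10 genes described here encode the AP-1 subunits Fos, Fosb, Fosl1, Fosl2, Jun, Junb and Jund, the AP-1 partner Atf3, and the immediate early regulators Egr1 and Myc. They were taken by symbol from a table of 55291 genes measured by bulk RNA-seq in 10 mouse livers. All 10 were found, and all 10 were among the 17015 genes that passed the filter on low counts. The livers came from female Cas9 Lox-Stop-Lox mice of 16 to 20 weeks, in which Cas9 is made once Cre has removed a stop cassette. Every mouse, controls included, received an AAV8 vector that carries a guide RNA and drives Cre from the TBG promoter, which is active in hepatocytes. The guide was either a non-targeting control (NTC) or one against Bap1 (sgBap1), a tumour suppressor gene that encodes a deubiquitinase. After 10 d the mice received carbon tetrachloride (CCl4), diluted 1:9 in olive oil, or the olive oil vehicle (Veh), intraperitoneally at 10 µL per g of body weight. The right lobe was taken for RNA 48 h later. Each genotype had 2 vehicle and 3 CCl4 livers, and the 4 groups are called NTC-Veh, NTC-CCl4, sgBap1-Veh and sgBap1-CCl4. Each sample is called a liver here, but the sources speak of liver samples without a statement that each came from its own mouse, so that p-values measure only the spread between these samples, which may be technical. Editing was directed to hepatocytes whereas the RNA came from all cells of the lobe.

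AP-1 is a family of dimers of basic leucine zipper proteins. Jun proteins can pair with each other or with Fos proteins, whereas Fos proteins need a Jun partner, and the dimers bind the site TGACTCA and the related site TGACGTCA. Fos, Jun, Egr1 and Myc belong to the immediate early genes, which growth factors and stress switch on within minutes through MAP kinases and serum response factor (SRF) without new protein synthesis. CCl4 is converted to a radical by Cyp2e1 in hepatocytes around the central vein, where it kills cells, and these genes are known to be switched on in liver after injury and during regeneration. The sampling time of 48 h lies well after that first wave.

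Total estimated counts ranged from 33047904 in sgBap1-Veh replicate 2 to 52199904 in sgBap1-CCl4 replicate 1, so that 3 counts corresponded to 0.0511 to 0.112 CPM (counts scaled to library size with TMM factors). All 6 hepatocyte markers were detected in every liver, with a summed level of 63957 to 154168 CPM. Bap1 stood at 34.8 and 34.8 CPM in NTC-Veh and at 17.5 and 19.5 CPM in sgBap1-Veh livers, a log2 fold change of -0.91 ± 0.12 (SE, edgeR adjusted p = 0.0172). With CCl4 it stood at 29.5 to 31.5 CPM in NTC and at 17.0 to 21.8 CPM in sgBap1 livers (-0.65 ± 0.095, edgeR adjusted p = 0.0307). Adjusted p values come from edgeR's quasi-likelihood test with Benjamini-Hochberg adjustment over all 17015 genes, and a gene is said to rise, fall or change where that value is under 0.05. The 4 fat cell markers summed to 127 CPM in sgBap1-CCl4 replicate 2 and to 0.565 to 15.4 CPM in the other 9 livers. In NTC-CCl4 livers the sum was almost all Cidec (mean 15.0 CPM), with means of at most 0.0149 CPM for Adipoq, Plin1 and Lep.

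RefSeq promoter windows on GRCm38.p6, 250 bases before to 50 bases after a RefSeq transcription start, were matched by symbol to 7 of the 10 genes. Not matched were Fosl1, Egr1 and Myc. Those of Fos, Jun and Atf3 are shown as the genes that gave AP-1 its name and its stress-induced partner. The Fos window lies at chr12:85473640-85473939 on the plus strand, the Jun window at chr4:95052173-95052472 on the minus strand and the Atf3 window at chr1:191183284-191183583 on the minus strand. The Atf3 and Fosl2 windows lie within the gene spans of GENCODE vM21, downstream of the outermost starts. The Jund window (chr8:70697489-70697788, plus strand) ends before the Jund gene of GENCODE vM21 begins at 70698949, so it does not hold that start. Capitals mark TGACG (on either strand, CGTCA as read here), TGACATCA and TATAAA.
Fos: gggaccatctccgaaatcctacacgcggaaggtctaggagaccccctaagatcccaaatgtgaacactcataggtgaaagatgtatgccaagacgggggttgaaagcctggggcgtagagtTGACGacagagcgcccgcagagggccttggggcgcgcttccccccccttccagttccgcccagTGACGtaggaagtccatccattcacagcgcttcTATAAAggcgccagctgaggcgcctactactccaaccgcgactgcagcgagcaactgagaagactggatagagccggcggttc
Jun: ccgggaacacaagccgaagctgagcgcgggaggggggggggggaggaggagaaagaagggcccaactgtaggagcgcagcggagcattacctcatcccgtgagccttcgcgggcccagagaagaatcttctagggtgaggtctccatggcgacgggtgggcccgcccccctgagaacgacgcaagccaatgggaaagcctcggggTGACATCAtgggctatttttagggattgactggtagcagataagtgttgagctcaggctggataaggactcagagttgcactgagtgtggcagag
Atf3: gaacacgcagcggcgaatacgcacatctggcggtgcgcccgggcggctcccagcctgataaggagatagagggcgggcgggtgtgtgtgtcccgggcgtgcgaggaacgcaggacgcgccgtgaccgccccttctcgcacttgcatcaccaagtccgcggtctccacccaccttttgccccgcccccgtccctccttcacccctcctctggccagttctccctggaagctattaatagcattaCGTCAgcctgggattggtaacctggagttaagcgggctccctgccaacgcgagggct
Both strands were searched, and the AP-1 letters TGACTCA were in none of the 7 windows and in 5.20% of all 32851 windows. The related TGACGTCA was in none and in 1.79% of all. The E-box CACGTG, which Myc and Max bind, was in none and in 7.15% of all. The Egr1 letters GCGTGGGCG were in none and in 0.612% of all, and an SRF site (CArG box) was in none and in 1.63% of all. Sites more than 250 bases upstream were not searched, nor was any promoter of Fosl1, Egr1 or Myc, so these absences hold for the windows only. The shorter TGACG, which is also contained in TGACGTCA, was found in the Fos, Fosb, Junb and Atf3 windows, 4 of 7, and in 20.8% of all windows. In Fos it spans positions -66 to -62 (and -129 to -125), upstream of TATAAA at -33 to -28. TATAAA was found in Fos and Junb and in 13.6% of all windows. TGACATCA was found in Jun, at -45 to -38, and in 3.62% of all windows. These last 3 motifs were searched for after the sequences had been seen, and a match of letters is a description and not a binding site.

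The first comparison addressed the response to damage in livers with the control guide. In NTC livers 48 h after CCl4, 9 of the 10 genes were higher than with vehicle and Jund was not called. Of all genes tested, 27.5% were higher and 53.8% changed in either direction. Over 9 of the genes, without Fosl1, the median log2 fold change was 1.77, against 0.03 over all 17015 genes. With Fosl1 at its lower bound it was 1.84. In sgBap1 livers all 10 rose, against 29% of all genes higher and 56.7% changed in either direction, and the corresponding medians were 2.86, 0.04 and 3.09. In bulk tissue a change in the share of a cell type cannot be told apart from a change of RNA per cell.

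**Figure D1:**
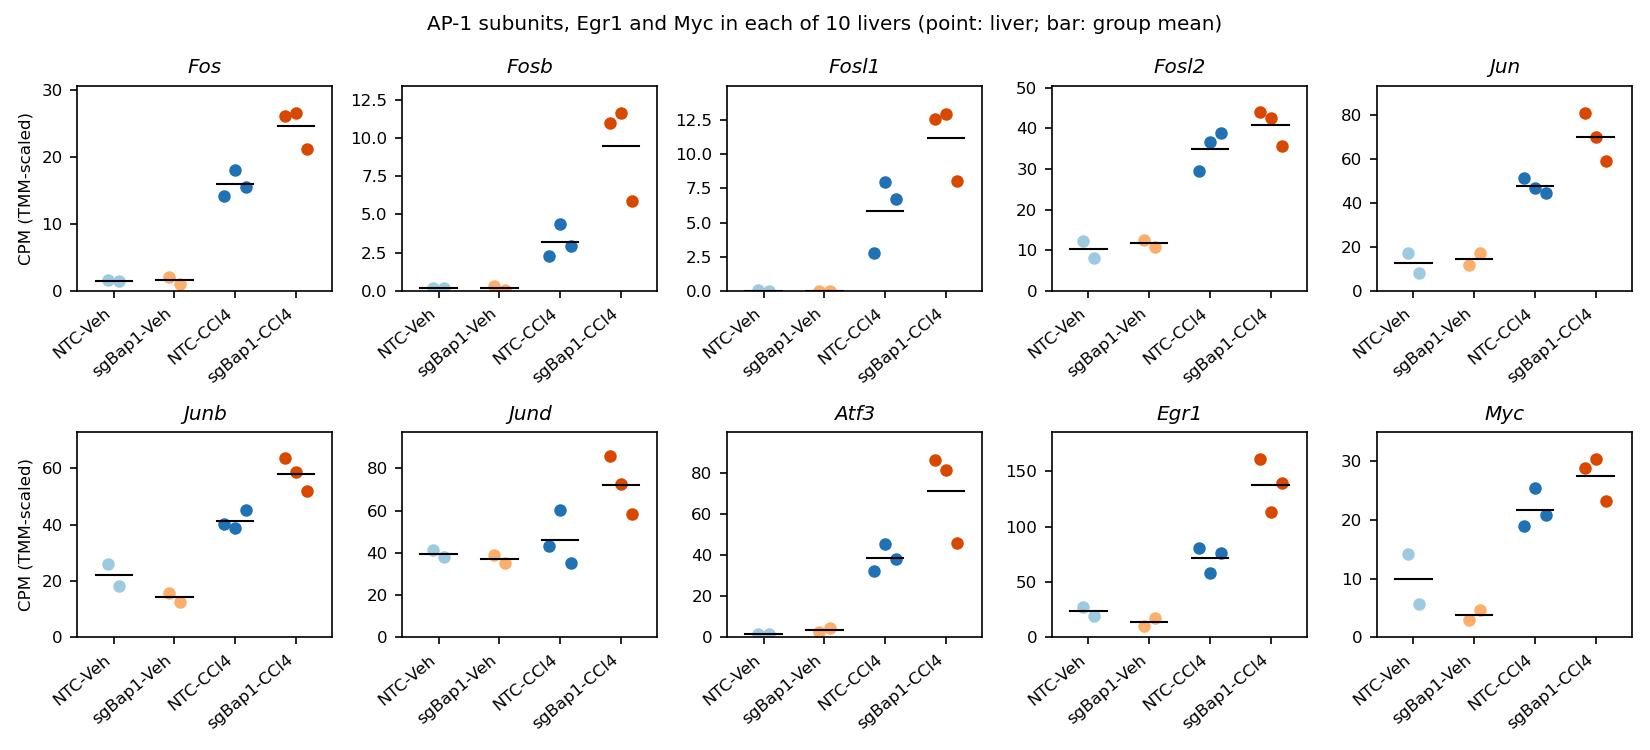
CPM of each gene (y axes, linear from 0, 1 scale per panel) in each of the 10 livers (points) with the group means (bars), by group (x axes). For every gene but Jund all CCl4 livers lie above all vehicle livers, and the highest liver of each panel is sgBap1-CCl4 replicate 1 or 2.

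The Fos family supplies the partners that cannot pair among themselves. Fos (chr12:85473890-85477273, plus strand) was at 1.69 and 1.41 CPM in NTC-Veh, 2.13 and 1.01 CPM in sgBap1-Veh, 14.2, 18.1 and 15.4 CPM in NTC-CCl4, and 26.1, 26.5 and 21.1 CPM in sgBap1-CCl4 livers. The 2 vehicle groups overlapped, with the wider spread in sgBap1-Veh, and the 6 CCl4 livers all stood above every vehicle liver. Fos rose 10.2-fold in NTC livers (log2 fold change 3.35 ± 0.26 SE, edgeR adjusted p = 5.18e-06) and 15.2-fold in sgBap1 livers (3.92 ± 0.26, edgeR adjusted p = 2.52e-06). Fosb (chr7:19302696-19310051, minus strand), which codes for a closely related subunit, was near the detection floor without damage. It was at 0.191 and 0.166 CPM in NTC-Veh, 0.350 and 0.0374 CPM in sgBap1-Veh, 2.28, 4.38 and 2.97 CPM in NTC-CCl4, and 10.9, 11.6 and 5.89 CPM in sgBap1-CCl4 livers. Its fitted rise was 4.15 ± 0.61 in NTC (edgeR adjusted p = 0.000345) and 5.46 ± 0.61 in sgBap1 livers (edgeR adjusted p = 5.58e-05) on the log2 scale. The sgBap1-Veh livers held 13 and 1 counts of Fosb, and the sgBap1 value was 7.89 without replicate 1 and 4.75 without replicate 2 of that group, so that its size is uncertain whereas the call held in each.

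Fosl1 (chr19:5447547-5455946, plus strand) encodes Fra-1, which lacks the transactivation domain of Fos. Without damage it was all but absent, with 2 counts in NTC-Veh replicate 1 (0.0545 CPM) and 0 in the other 3 vehicle livers. With CCl4 it reached 2.79, 7.98 and 6.71 CPM in NTC and 12.6, 13.0 and 8.03 CPM in sgBap1 livers. In NTC livers the ratio of 814 to 2 counts was 214 after scaling, with an exact 95% interval of 59.0 to 1769 for counting error only. In sgBap1 livers, where the vehicle count was 0, Fosl1 was at least 99.8-fold higher with CCl4, taking 3 counts per library as the floor. The rise passed the test in both genotypes (edgeR adjusted p = 0.000181 and 7.60e-05). Fosl2 (chr5:32135801-32157842, plus strand), which encodes Fra-2, was expressed in every liver. It was at 12.3 and 8.20 CPM in NTC-Veh, 12.6 and 10.8 CPM in sgBap1-Veh, 29.6, 36.8 and 38.8 CPM in NTC-CCl4, and 44.1, 42.5 and 35.6 CPM in sgBap1-CCl4 livers. It rose 3.41-fold in NTC (1.77 ± 0.19, edgeR adjusted p = 3.57e-05) and 3.47-fold in sgBap1 livers (1.80 ± 0.19, edgeR adjusted p = 3.08e-05), with no overlap.

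Among the Jun family, Jun (chr4:95049034-95052222, minus strand) encodes the main partner of Fos and is needed for hepatocyte proliferation during regeneration. Jun was at 17.3 and 8.09 CPM in NTC-Veh, 11.9 and 17.4 CPM in sgBap1-Veh, 51.1, 46.7 and 44.6 CPM in NTC-CCl4, and 80.9, 69.7 and 59.0 CPM in sgBap1-CCl4 livers. The vehicle groups overlapped, whereas each CCl4 liver was above each vehicle liver. The log2 fold changes were 1.90 ± 0.31 in NTC (edgeR adjusted p = 0.000853) and 2.26 ± 0.31 in sgBap1 livers (edgeR adjusted p = 0.000323). Junb (chr8:84974484-84978718, minus strand), often a weaker activator that can oppose Jun, was at 25.9 and 18.4 CPM in NTC-Veh, 15.8 and 12.7 CPM in sgBap1-Veh, 40.4, 38.7 and 45.2 CPM in NTC-CCl4, and 63.5, 58.6 and 52.0 CPM in sgBap1-CCl4 livers. It rose by 0.90 ± 0.16 in NTC (edgeR adjusted p = 0.000795) and by 2.02 ± 0.17 in sgBap1 livers (edgeR adjusted p = 6.38e-06).

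Jund (chr8:70698949-70700616, plus strand), the Jun gene that is expressed without stimulation in many tissues, was the exception. It was at 41.5 and 37.8 CPM in NTC-Veh, 38.8 and 35.4 CPM in sgBap1-Veh, 43.0, 60.5 and 35.1 CPM in NTC-CCl4, and 85.6, 72.7 and 58.2 CPM in sgBap1-CCl4 livers. NTC-CCl4 livers overlapped with NTC-Veh livers (0.22 ± 0.22, edgeR adjusted p = 0.427), and without NTC-CCl4 replicate 2 the difference was -0.02. Under scaling by library size alone, which moves the median of all genes from 0.03 to 0.50, it was 0.70 (edgeR adjusted p = 0.0235). In sgBap1 livers Jund rose 1.95-fold (0.96 ± 0.23, edgeR adjusted p = 0.00543). Jun, Junb, Jund and Atf3 overlap other annotated genes, on the opposite strand (Junos, Prdx2, Gm11175 and Gm24748), as does Fosl1 (Ccdc85b). The library kit keeps strand, but whether the counting used it is not given in the sources used here. None of the 10 genes shared a stretch of 50 bases with another gene's transcripts in GENCODE vM21, read in the same orientation. Sequence shared with transcripts of the opposite strand was not searched for.

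Atf3 (chr1:191170296-191218039, minus strand), a stress-induced bZIP factor that pairs with Jun proteins, had the largest fold change in NTC livers among the 9 genes expressed with vehicle. It was at 1.58 and 1.55 CPM in NTC-Veh, 2.77 and 4.72 CPM in sgBap1-Veh, 32.4, 45.4 and 38.2 CPM in NTC-CCl4, and 86.5, 81.7 and 46.0 CPM in sgBap1-CCl4 livers. It rose 24.7-fold in NTC (4.62 ± 0.38, edgeR adjusted p = 1.93e-05) and 19.4-fold in sgBap1 livers (4.28 ± 0.36, edgeR adjusted p = 1.90e-05). Egr1 (chr18:34859823-34864984, plus strand) encodes a zinc finger factor that MAP kinase signalling induces through SRF. It was at 27.4 and 19.6 CPM in NTC-Veh, 10.4 and 17.3 CPM in sgBap1-Veh, 80.5, 58.0 and 76.3 CPM in NTC-CCl4, and 161, 114 and 140 CPM in sgBap1-CCl4 livers. The sgBap1 livers were thus the lowest with vehicle and the highest with CCl4. Egr1 rose 3.04-fold in NTC (1.61 ± 0.26, edgeR adjusted p = 0.000728) and 10.0-fold in sgBap1 livers (3.33 ± 0.28, edgeR adjusted p = 1.59e-05).

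Myc (chr15:61985391-61990374, plus strand) encodes a driver of ribosome production and cell growth. It was at 14.3 and 5.76 CPM in NTC-Veh, 2.96 and 4.72 CPM in sgBap1-Veh, 19.0, 25.5 and 20.8 CPM in NTC-CCl4, and 28.9, 30.4 and 23.2 CPM in sgBap1-CCl4 livers. The 2 NTC-Veh livers differed more for Myc than those of any other group did. Myc rose 2.17-fold in NTC (1.12 ± 0.35, edgeR adjusted p = 0.0253) and 7.26-fold in sgBap1 livers (2.86 ± 0.40, edgeR adjusted p = 0.000352). The NTC call did not hold without NTC-Veh replicate 2 (0.61, edgeR adjusted p = 0.0878) or without NTC-CCl4 replicate 2 (0.99, edgeR adjusted p = 0.0646).

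**Figure D2:**
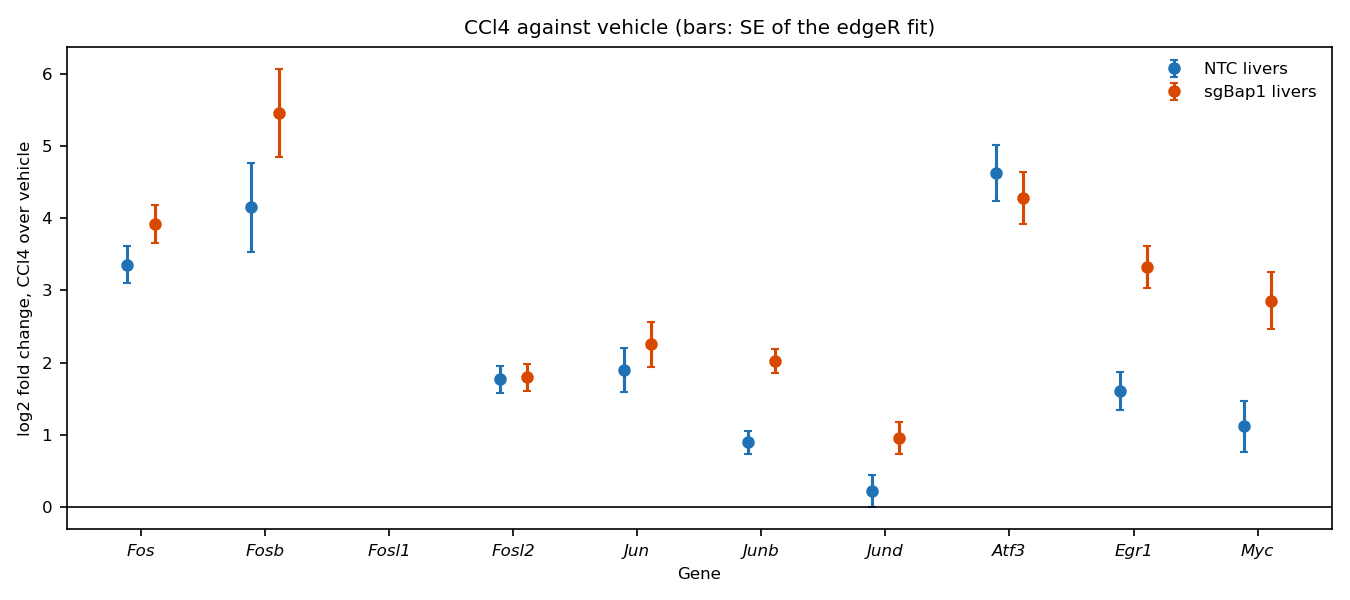
Log2 fold change of CCl4 over vehicle from the edgeR fit (y axis) for each gene (x axis) in NTC and sgBap1 livers, with SE bars. Fosl1 is left out because its vehicle livers held 0 to 2 counts. Fos, Fosb and Atf3 stand above 3 in both genotypes, and Jund is the lowest in both.

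Cell type markers differed in the same contrast. The 6 hepatocyte markers summed to 108991 to 154168 CPM in vehicle and 63957 to 81943 CPM in CCl4 livers, without overlap, and 5 of them fell in NTC and 2 in sgBap1 livers. Cyp2e1 went from 9745 to 186 CPM in NTC and from 7560 to 112 CPM in sgBap1 livers. The 8 macrophage and leukocyte markers summed to 162 and 224 CPM in NTC-Veh, 324 and 437 CPM in sgBap1-Veh, 653 to 838 CPM in NTC-CCl4, and 659 to 860 CPM in sgBap1-CCl4 livers, with none at 0. Its members did not move together. Lyz2, a lysozyme gene of myeloid cells, made up the largest part of the sum with CCl4, at 408 ± 44.2 CPM against 52.5 ± 11.6 CPM with vehicle in NTC livers (SD, n = 3 and 2). Clec4f, a marker of resident liver macrophages, had means of 75.2 CPM with vehicle and 63.2 CPM with CCl4 in NTC livers (not called) and fell from 143 to 58.5 CPM in sgBap1 livers. Of the 8, 5 rose in NTC livers, and 4 rose and 1 fell in sgBap1 livers. The 6 stellate cell markers summed to 218 to 283 CPM in vehicle and 396 to 880 CPM in CCl4 livers, and 4 rose in NTC and 3 in sgBap1 livers. The 880 CPM belonged to sgBap1-CCl4 replicate 2, the liver with fat cell markers, and the next highest sum was 500 CPM. The 4 neutrophil markers summed to 2.99 to 6.06 CPM in vehicle livers, with 1 of the 4 at 0 in 3 of them, and 14.0 to 21.5 CPM in CCl4 livers. The 4 bile duct markers reached 4.46 to 7.81 CPM in vehicle and 11.9 to 17.8 CPM in CCl4 livers. Among them Sox9 alone was called, with means of 2.13 and 9.81 CPM in NTC and 2.29 and 9.12 CPM in sgBap1 livers. The 5 endothelial markers summed to 132 to 178 CPM with vehicle and 147 to 174 CPM with CCl4, which overlap. Single members moved both ways, as 2 of the 5 rose in NTC livers, and 2 rose and 2 fell in sgBap1 livers. In NTC livers the mean of Lyve1 went from 7.24 to 21.9 CPM, and in sgBap1 livers that of Clec4g from 46.9 to 28.6 CPM. The part of these cell types in the rise of the AP-1 genes was not tested.

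The next comparison asked how the genes stood after damage when Bap1 was reduced. In CCl4-treated livers all 10 genes had a higher mean in sgBap1 than in NTC livers, by log2 fold changes of 0.22 to 1.56 with a median of 0.64, against 0.0018 over all genes. None passed edgeR's threshold, which 0.253% of all genes did, and 7 had an unadjusted p under 0.05. For 7 of the genes every sgBap1-CCl4 liver was above every NTC-CCl4 liver, whereas Fosl2, Jund and Myc overlapped. Of all genes 10.1% were higher in sgBap1 without overlap. DESeq2's Wald test called 6 of the 10, against 3.09% of all genes it tested, so that these calls turn on the tool. The 6 were Fos, Fosb, Junb, Jund, Atf3 and Egr1.

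Fosb showed the largest difference, 1.56 ± 0.37 on the log2 scale or 2.95-fold (edgeR adjusted p = 0.134, DESeq2 adjusted p = 0.00144). Egr1 was 1.93-fold higher, with 138 ± 23.6 CPM (SD, n = 3) in sgBap1 and 71.6 ± 12.0 CPM (SD, n = 3) in NTC livers (0.95 ± 0.22 SE, edgeR adjusted p = 0.127, DESeq2 adjusted p = 0.00129). Atf3 was 1.85-fold higher (0.88 ± 0.25, edgeR adjusted p = 0.184, DESeq2 adjusted p = 0.0169), with sgBap1-CCl4 replicate 3 close to the NTC range. Fos, at 24.6 ± 2.97 CPM (SD, n = 3) against 15.9 ± 1.99 CPM (SD, n = 3), differed by 0.63 ± 0.18 SE (edgeR adjusted p = 0.170, DESeq2 adjusted p = 0.0317). Jund differed by 0.64 ± 0.20 (edgeR adjusted p = 0.205, DESeq2 adjusted p = 0.0409) and Junb by 0.49 ± 0.13 (edgeR adjusted p = 0.160, DESeq2 adjusted p = 0.0438). Fosl1 was 1.92-fold higher (0.94 ± 0.39, edgeR adjusted p = 0.347) and Jun 1.47-fold higher (0.56 ± 0.25, edgeR adjusted p = 0.380), neither called by either tool. Fosl2 (0.22 ± 0.15, edgeR adjusted p = 0.580) and Myc (0.33 ± 0.30, edgeR adjusted p = 0.670) had the smallest differences.

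The order among the livers was alike for most genes. Of the 6 CCl4 livers, sgBap1-CCl4 replicate 1 was the highest for 6 genes and replicate 2 for the other 4, and replicate 3 was the lowest of its group for 9. Replicate 2 is the liver with fat cell markers and with the highest stellate cell sum, 880 CPM. Without it, edgeR called 0 genes of the set and the differences were 1.39 for Fosb, 1.07 for Egr1, 0.78 for Atf3 and 0.57 for Fos. DESeq2 then called Fosb and Egr1 alone. With each of the 10 livers left out in turn, DESeq2 called 1 to 6 of the genes, and Egr1 was called in all 10 fits, Fosb in 9, Fos and Atf3 in 6, Junb in 5, and Jund and Jun in 2 each. The single call was without sgBap1-CCl4 replicate 1, and 2 genes were called without NTC-CCl4 replicate 1, NTC-CCl4 replicate 3 or sgBap1-CCl4 replicate 2. The 4 red cell markers summed to 876 to 2437 CPM in NTC-CCl4 and 797 to 1065 CPM in sgBap1-CCl4 livers. The macrophage and leukocyte sums of these 2 groups overlapped.

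**Figure D3:**
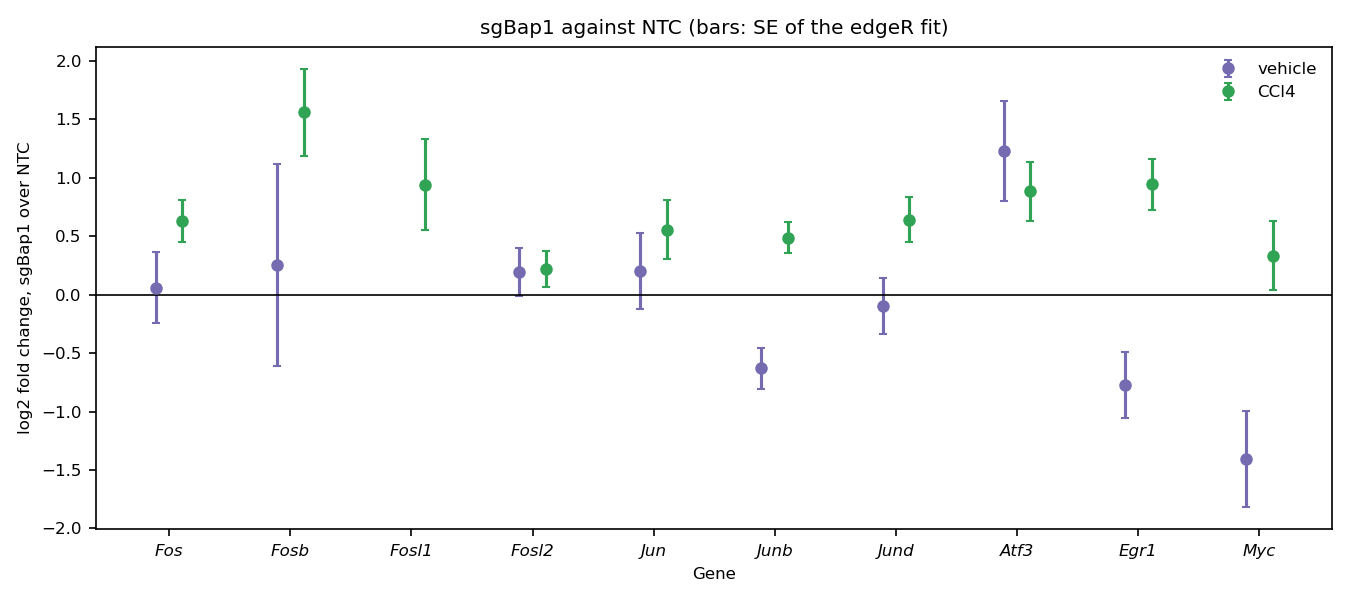
Log2 fold change of sgBap1 over NTC from the edgeR fit (y axis) for each gene (x axis) with vehicle and with CCl4, with SE bars. Fosl1 has no vehicle value because its vehicle livers held 0 to 2 counts. With CCl4 all 10 values lie above 0, whereas with vehicle Junb, Egr1 and Myc lie below and Atf3 above.

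In vehicle livers the genes did not share a direction. Of the 9 genes other than Fosl1, which was at or under the floor in both groups, 5 had a higher and 4 a lower mean in sgBap1 than in NTC livers, with a median log2 fold change of 0.06. None of the set passed edgeR's threshold, which 0.523% of all genes did, and 4 had an unadjusted p under 0.05. These 4 were also the genes whose groups of 2 livers did not overlap, Junb, Egr1 and Myc lower and Atf3 higher. Of all genes 19.2% were lower and 21.7% higher without overlap.

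Myc was at 3.84 ± 1.24 CPM (SD, n = 2) in sgBap1-Veh and 10.0 ± 6.03 CPM (SD, n = 2) in NTC-Veh livers, 2.65-fold lower in sgBap1 (-1.41 ± 0.41 SE, edgeR adjusted p = 0.200, DESeq2 adjusted p = 0.00768). Egr1 was 1.71-fold lower (-0.77 ± 0.28, edgeR adjusted p = 0.293, DESeq2 adjusted p = 0.0931) and Junb 1.55-fold lower (-0.63 ± 0.17, edgeR adjusted p = 0.150, DESeq2 adjusted p = 0.0370). Atf3 was 2.35-fold higher (1.23 ± 0.43, edgeR adjusted p = 0.269, DESeq2 adjusted p = 0.0122). DESeq2 thus called Junb, Atf3 and Myc, 3 of the 10 against 3.65% of all genes it tested. Atf3 and Myc stayed called with any 1 CCl4 liver left out, whereas Junb did not without NTC-CCl4 replicate 1 or sgBap1-CCl4 replicate 1. The DESeq2 differences depended on the vehicle livers. Without NTC-Veh replicate 1 they were -0.35 for Junb and -0.59 for Myc, against -0.63 and -1.38 with all livers. NTC-Veh replicate 1 was above replicate 2 for all 10 genes, and against replicate 2 alone the Myc difference was -0.61 and the Egr1 difference -0.51. Fos (0.06 ± 0.30, edgeR adjusted p = 0.972), Fosb (0.25 ± 0.86, 0.954), Fosl2 (0.19 ± 0.20, 0.781), Jun (0.20 ± 0.33, 0.881) and Jund (-0.10 ± 0.24, 0.932) had overlapping groups. The macrophage and leukocyte markers were higher in sgBap1-Veh livers, with 2 of 8 called (Ptprc and Csf1r), and their part in these differences was not tested.

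The interaction asked whether the CCl4 response itself differed between the genotypes. By edgeR it did so for none of the 10 genes and 0% of all genes, with an unadjusted p under 0.05 for Junb, Jund, Egr1 and Myc. Egr1 rose by 1.72 ± 0.36 more on the log2 scale in sgBap1 than in NTC livers (edgeR adjusted p = 0.117, DESeq2 adjusted p = 0.000207) and Junb by 1.12 ± 0.22 more (edgeR adjusted p = 0.0905, DESeq2 adjusted p = 0.00108). For Myc the difference was 1.74 ± 0.51 (edgeR adjusted p = 0.251, DESeq2 adjusted p = 0.0133), and 0.94 without NTC-Veh replicate 1, the higher of the NTC-Veh livers. DESeq2 called these 3 of the 10, against 2.71% of all genes it tested. Junb and Egr1 were called in each of the 10 DESeq2 fits that left out a liver, and Myc in 6. Junb and Egr1 were also below NTC with vehicle and above NTC with CCl4 without overlap in either, as were 1.3% of all genes. The remaining interactions were 0.57 ± 0.35 for Fos, 1.31 ± 0.96 for Fosb, 0.02 ± 0.25 for Fosl2, 0.36 ± 0.41 for Jun, 0.74 ± 0.31 for Jund and -0.35 ± 0.49 for Atf3. The interaction of Fosl1 is not given, since its vehicle livers were at the floor.

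To compare levels between genes, CPM was divided by the length of all annotated exons in kb, which need not be the length of the transcripts expressed. The ranks below rest on that length. Jund was the highest of the 10 genes per kb in every group, at 23.8 ± 1.55 CPM per kb with vehicle and 27.7 ± 7.77 with CCl4 for NTC (SD, n = 2 and 3), and at 22.2 ± 1.43 with vehicle and 43.3 ± 8.20 with CCl4 for sgBap1 (SD, n = 2 and 3). In NTC-Veh livers it was followed by Junb (9.64 ± 2.32), Egr1 (5.24 ± 1.23), Jun (3.98 ± 2.05) and Myc (3.69 ± 2.22), of which neighbours from Egr1 on did not differ beyond their spread. Fosl2, Atf3 and Fos stood between 0.66 and 1.06, and Fosb and Fosl1 at or below 0.029. In sgBap1-CCl4 livers Jund was followed by Atf3 (33.1 ± 10.3), Egr1 (30.8 ± 5.26), Junb (25.2 ± 2.52) and Jun (21.9 ± 3.44), whose ranges overlapped from each to the next. Fos (10.4 ± 1.26) and Myc (8.53 to 11.2) came next, then Fosl1 (5.51 ± 1.35), Fosl2 (4.21 ± 0.46) and Fosb (1.52 ± 0.50).

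The make-up of both families therefore differed between vehicle and CCl4 livers. Jund made up 59.8 to 68.7% of the summed Jun family level per kb in the 4 vehicle livers and 38.5 to 53.5% in the 6 CCl4 livers. The share of Jun went from 7.64 to 16.9% to 21.6 to 27.0%, and that of Junb from 17.2 to 27.1% to 24.8 to 35.9%, with overlap. In the Fos family, Fosl2 made up 57.5 to 71.9% with vehicle and 18.4 to 28.3% with CCl4. Fos went from 27.7 to 40.7% to 45.7 to 55.7%, and Fosl1 from 0 to 1.31% to 12.7 to 26.7%. The summed Fos family level was 1.76 ± 0.40 CPM per kb (SD, n = 2) in NTC-Veh and 13.8 ± 2.69 (SD, n = 3) in NTC-CCl4 livers, and that of the Jun family 37.4 ± 5.92 (SD, n = 2) and 60.6 ± 6.60 (SD, n = 3). In sgBap1 livers the Fos family summed to 1.91 ± 0.50 with vehicle and 21.7 ± 3.56 with CCl4, and the Jun family to 33.0 ± 1.17 and 90.4 ± 14.1 CPM per kb (SD, n = 2 and 3). Within CCl4 livers the Fosb share was 3.31 to 4.35% in NTC and 5.37 to 7.77% in sgBap1 livers, and the Fosl2 share 23.6 to 28.3% and 18.4 to 21.0%, neither with overlap. These shares do not depend on the scaling of the libraries but do depend on the exon lengths used, and they are given as a description without a test.

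**Figure D4:**
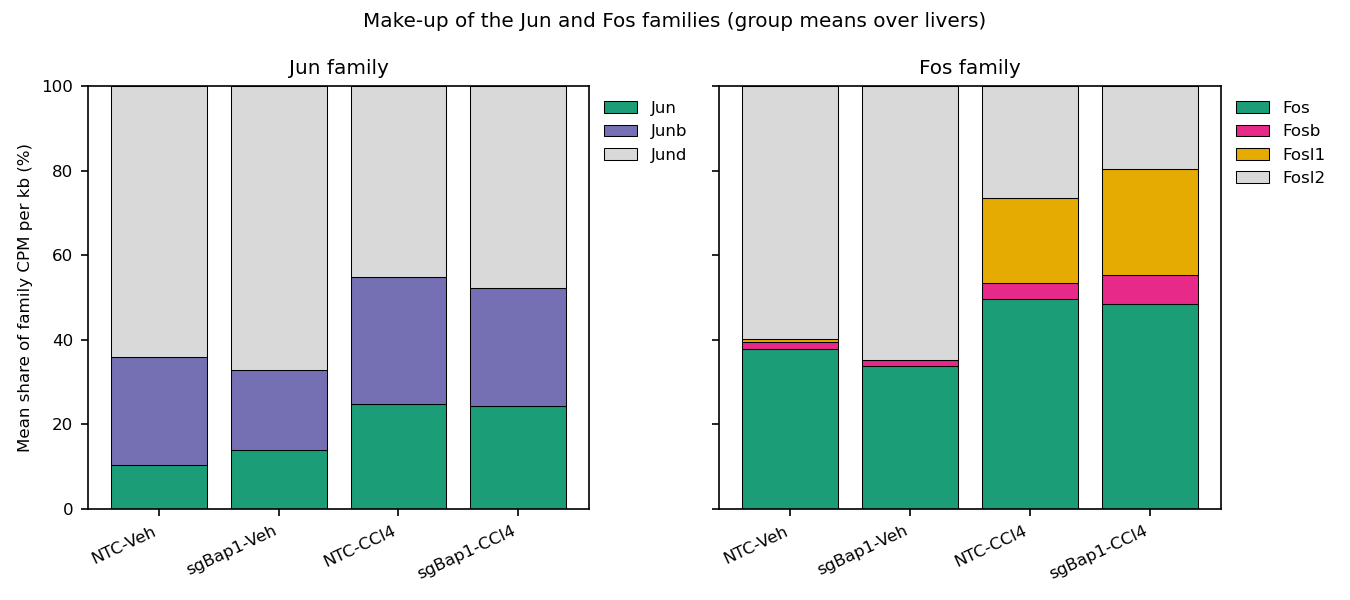
Mean share of each gene in the summed CPM per kb of the Jun family (left) and the Fos family (right), in % (y axis), for the 4 groups (x axis), with 2 vehicle and 3 CCl4 livers per group. Jund and Fosl2 (grey) hold most of their family with vehicle and less than 50% in every CCl4 group mean.

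The wider network was read from lists of related genes, whose named falls were all larger than the shift in the median of all genes under scaling by library size alone. The lists were chosen with earlier results of these data known. Genes are named for the genotype in which they were among the largest changes of their list. A value for 1 genotype alone thus does not mean that the other did not change. Of 36 other immediate early genes, 24 rose and 5 fell in NTC livers with CCl4, and 25 rose and 3 fell in sgBap1 livers, with medians of 1.34 and 1.25 on the log2 scale. Among all genes tested 27.5% rose in NTC and 29% in sgBap1 livers, and 53.8% and 56.7% changed in either direction. Egr2, an Egr1 relative, rose by 5.66 ± 0.37 in NTC and 3.95 ± 0.30 in sgBap1 livers, from at most 0.511 CPM with vehicle to 4.50 to 8.61 CPM. Ier3, a stress response gene, rose by 3.69 ± 0.17 and 4.58 ± 0.18, and Dusp4, a MAP kinase phosphatase, by 4.08 ± 0.38 in sgBap1 livers. The mean of Dusp4 in NTC livers went from 0.972 to 8.12 CPM. The orphan receptor gene Nr4a3 rose by 3.56 ± 0.68 in NTC livers, and its mean in sgBap1 livers went from 0.515 to 2.47 CPM. In NTC-Veh replicates 1 and 2, Nr4a3 held 3 and 5 counts and Egr2 6 and 2, so that the sizes of these 2 NTC rises are uncertain. Klf10, Phlda1 and Errfi1, a feedback inhibitor of EGF receptor, fell in both genotypes. Between the genotypes none of the 36 was called with vehicle or with CCl4, against 0.523% and 0.253% of all genes, so that no call in a short list says little. With CCl4, 28 of the 36 were higher and 8 lower in sgBap1 than in NTC livers. Their median log2 fold change was 0.36, against 0.0018 over all genes.

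Of 20 genes widely described as AP-1 targets, 19 rose in NTC and 18 in sgBap1 livers with CCl4, and none fell, with medians of 4.22 and 3.63. The shares of all genes that rose were 27.5% in NTC and 29% in sgBap1 livers. Il6 was not called in either and Ccnd1 not in sgBap1 livers. Between the genotypes none of the 20 was called with vehicle or with CCl4, against 0.523% and 0.253% of all genes. With CCl4, 17 were higher and 3 lower in sgBap1 than in NTC livers, with a median of 0.35. Their interactions were positive for 10 and negative for 10, with a median of -0.10. Mmp12, a macrophage metalloelastase, rose from 0.299 to 0.636 CPM in vehicle livers to 103 to 167 CPM in CCl4 livers (8.67 ± 0.34 in NTC and 7.79 ± 0.31 in sgBap1). Sprr1a, which encodes a cornified envelope protein, had 0 counts in NTC-Veh and 14.9 to 42.7 CPM in NTC-CCl4 livers, at least 344-fold higher. In sgBap1 livers it went from 0.0538 and 0.299 CPM to 45.1 to 65.7 CPM (8.45 ± 0.79). Mmp3, another matrix metalloprotease, had 210 counts in NTC-CCl4 against 2 in NTC-Veh libraries, a ratio of 55.2 with an exact 95% interval of 15.1 to 459. In sgBap1-Veh livers Mmp3 had 0 counts, and in sgBap1-CCl4 livers it stood at 10.0 CPM in replicate 2, the liver with fat cell markers, and at 1.75 and 1.81 CPM in the others, so that no fold is given. Several of these genes are also expressed by macrophages, and 5 of the 8 macrophage and leukocyte markers rose with the same contrast in NTC livers.

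The 17 partners and other bZIP factors had 7 higher and 5 lower in NTC and 5 higher and 4 lower in sgBap1 livers, 70.6% and 52.9% called against 53.8% and 56.7% of all genes. Batf (2.03 ± 0.37) and Batf3 (1.70 ± 0.28), which pair with Jun proteins in immune cells, rose in NTC livers, and Maff rose by 2.22 ± 0.19 in sgBap1 livers. In the other genotype, means went from 0.652 to 1.52 CPM for Batf, 1.23 to 1.38 CPM for Batf3 and 4.48 to 13.1 CPM for Maff. With CCl4, 15 of the 17 were higher and 2 lower in sgBap1 than in NTC livers, with a median of 0.11. Cebpd, which encodes an acute phase bZIP factor, was the only listed gene outside the cell markers that was called between the genotypes. It was at 4.03, 5.75 and 3.88 CPM in NTC-CCl4 and 9.25, 12.7 and 8.69 CPM in sgBap1-CCl4 livers (1.16 ± 0.19, edgeR adjusted p = 0.0452), and it rose with CCl4 in sgBap1 livers (1.31 ± 0.22). The 21 upstream kinases and SRF factors had 7 higher and 5 lower in NTC and 8 higher and 8 lower in sgBap1 livers, 57.1% and 76.2% called against 53.8% and 56.7% of all genes, with medians of -0.07 and -0.01. Map2k6, which activates p38 kinases, fell in both (-1.58 ± 0.31 and -2.10 ± 0.32). Elk3, an SRF partner, rose in NTC (1.04 ± 0.17), the SRF coactivator gene Mrtfa in both (0.92 ± 0.17 and 0.97 ± 0.17), and Srf by 0.86 ± 0.17 in sgBap1 livers. Means in the other genotype went from 10.4 to 16.1 CPM for Elk3 and from 10.5 to 14.6 CPM for Srf. With CCl4, 10 of the 21 were higher and 11 lower in sgBap1 than in NTC livers, with a median of -0.0013.

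Of 9 tested EGR corepressors and targets, 5 rose and 3 fell in each genotype, 88.9% called against 53.8% and 56.7% of all genes. The rises included Pdgfb (2.50 ± 0.26 and 2.22 ± 0.25) and Tgfb1 (1.93 ± 0.18 and 1.69 ± 0.18), both ligands that act on stellate cells, and Pdgfa (1.55 ± 0.18 in NTC). The mean of Pdgfa in sgBap1 livers went from 5.16 to 9.70 CPM. Of 20 genes widely described as MYC targets, many of them nucleolar, 16 rose in NTC and 19 in sgBap1 livers and none fell, with medians of 0.59 and 0.56. The shares of all genes that rose were 27.5% and 29%. Cad, for pyrimidine synthesis, rose by 1.75 ± 0.16 and 1.63 ± 0.16, the nucleolar factors Nop58 by 1.16 ± 0.11 and 1.13 ± 0.11 and Nop56 by 1.09 ± 0.091 in NTC, and Ldha, for lactate dehydrogenase, by 1.20 ± 0.15 in sgBap1 livers. Means in the other genotype went from 24.6 to 49.9 CPM for Nop56 and from 1034 to 1619 CPM for Ldha. In the MYC network, 2 of 10 rose and 3 fell in NTC, and 3 rose and 4 fell in sgBap1 livers. That is 50% and 70% called, against 53.8% and 56.7% of all genes. Mxd3, a Max partner of cycling cells, rose by 4.54 ± 0.41 and 3.85 ± 0.40, whereas Mycl (-1.46 ± 0.33 and -2.11 ± 0.34) and Mxd4 (-0.87 ± 0.078 and -0.83 ± 0.078) fell in both. Between the genotypes, none of these EGR or MYC lists had a called gene with vehicle or with CCl4, against 0.523% and 0.253% of all genes, so that no call in lists this short says little. With CCl4, the EGR list had 4 genes higher and 5 lower in sgBap1 than in NTC livers, with a median of -0.03. The MYC targets had 12 higher and 8 lower (median 0.04), and the MYC network 7 higher and 3 lower (median 0.11).

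**Figure D5:**
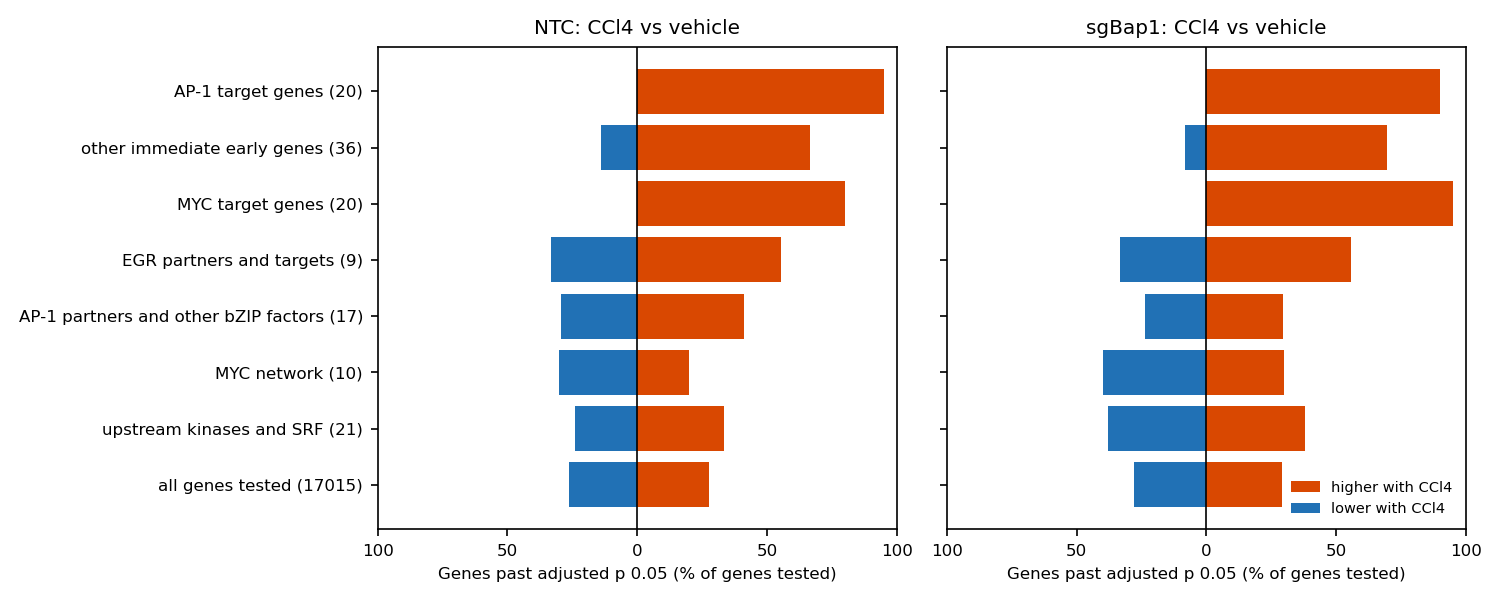
Share of each list, in % of the genes tested (x axis, number tested in brackets), that was higher (right) or lower (left) with CCl4 at an edgeR adjusted p under 0.05, in NTC and sgBap1 livers. AP-1 targets, MYC targets and other immediate early genes lie mainly on the higher side, whereas the remaining lists and all genes are split between both sides.

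For 5 of the genes the profile over the 10 livers was compared with that of 13381 genes with a mean of at least 1 CPM, by the root mean square difference of centred log2 CPM. The genes closest to Fos were Nrg1 (0.22), Dusp4 (0.25) and Mthfd2 (0.26), those closest to Jun were Tnfrsf11b, Relt and Derl3 (0.24 to 0.25), and those closest to Atf3 were Slc16a3 (0.31), Olr1 (0.35) and Egr2 (0.38). Cdkn1a, which encodes the cell cycle inhibitor p21, was the closest to both Myc (0.16) and Egr1 (0.36). It was at 46.5 and 21.9 CPM in NTC-Veh, 10.4 and 16.5 CPM in sgBap1-Veh, 83.6, 91.0 and 79.9 CPM in NTC-CCl4, and 114, 118 and 112 CPM in sgBap1-CCl4 livers, low with vehicle and high with CCl4 in sgBap1 livers as for Egr1. Inka2 (0.25) and Tnfrsf10b (0.31) followed for Myc, and Fndc3b and Igfbp1 (both 0.37) for Egr1. Among the 10 genes themselves the closest pair was Jun and Fosl2 (0.33).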

How the data were processed

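RNA from 10 mouse livers was sequenced with a stranded mRNA kit as pairs of 50 bases. Per the labels and the study's methods, the authors aligned reads to GRCm38 with STAR 2.7.6a and quantified genes with Salmon 1.4.0. The deposited table holds Salmon's estimated counts (expected counts) per gene symbol, not normalized, of which 9.22% were not whole. Rounded values were fitted with edgeR 4.0.16 under R 4.3.3 (filterByExpr, TMM, glmQLFit with robust = TRUE, 1 model of 4 groups). Tests for 4 pairs of groups and for the interaction were two-sided, by edgeR's quasi-likelihood test and Benjamini-Hochberg adjustment, threshold 0.05. The fit was tested on simulated data.

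DESeq2 1.42.0 (interaction design), DESeq2 size factors, library size alone, no filter, only the groups compared, the replicate block and each liver left out were the alternatives. DESeq2 with each liver left out was added after the data were seen. The genes and all lists were chosen with earlier results of these data known. Named genes are all 10 members, up to 3 genes per list and comparison with the largest absolute log2 fold change (adjusted p under 0.05, mean of at least 1 CPM), the 3 closest profiles for 5 members (some genes that this rule names are not reported here), and, chosen after their values were seen, Bap1, Ptprc, Csf1r, Klf10, Phlda1, Errfi1, Il6 and Ccnd1. Profiles used log2(CPM + 0.1). Gene positions and exon lengths come from GENCODE vM21, since vM25, used by the authors, was not used here, and promoter windows from RefSeq on GRCm38.p6.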

Additional observations from a re-analysis of the deposited data

Results flagged for a closer look

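Junb and Egr1 stood out because the genotype difference pointed one way with vehicle and the other way with CCl4, without overlap in either, a pattern found in 1.3% of all genes tested. The interaction was 1.12 on the log2 scale for Junb (edgeR adjusted p = 0.0905, DESeq2 adjusted p = 0.00108) and 1.72 for Egr1 (edgeR adjusted p = 0.117, DESeq2 adjusted p = 0.000207). Both kept their sign with each liver left out, at 0.85 to 1.35 for Junb and 1.39 to 2.12 for Egr1 in edgeR. With 2 livers in each vehicle group, a vehicle difference without overlap is common, as it held for 19.2% of all genes in the lower direction.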

How the results depend on the processing

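Of the 10 genes, 9 rose in NTC and 10 in sgBap1 livers with CCl4, and under the alternatives with all livers the NTC count was 8 without a filter or in a fit of only the groups compared, 10 under library size alone and 9 otherwise, while the sgBap1 count was 10 in each. With each liver left out, these counts were 8 to 9 and 10 to 10, and the counts of all genes 7260 to 9297 and 7738 to 9577. Between the genotypes edgeR called 0 of the 10 with any liver left out, while DESeq2 (chosen after the data were seen) called 1 to 4 with vehicle, 1 to 6 with CCl4 (5 without either sgBap1-Veh liver or NTC-CCl4 replicate 2) and 2 to 4 for the interaction. With all livers, DESeq2 called 3, 6 and 3 of the 10, and 549, 481 and 408 of all genes. EdgeR's counts of all genes with a liver left out were 0 to 150 with vehicle, 1 to 49 with CCl4 and 0 to 12 for the interaction, against 89, 43 and 0. They were 47 with vehicle and 8 for the interaction under library size alone, 177, 113 and 103 without a filter, 35 with vehicle in a fit of only the groups compared, and 1 and 3 with the replicate block. Without a filter 1 of the 10, Junb, was called for the interaction. Library size alone moved the median of all genes to 0.50 and 0.52 for CCl4 and the share of calls that were higher from 51.1% to 80.7% and from 51.2% to 78.5%. Deviations of same-numbered livers from their group means had r of -0.16 to 0.11 over 13 pairs. In groups of 2 livers the deviations mirror each other, so these pairs are not independent and cannot settle whether livers were paired. The replicate block changed no other count by over 1.5 times. The cause of these shifts was not tested.

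With a liver left out, values changed sign in 14 cases, none of them called. In vehicle livers these were Fos (-0.06 and -0.62, with 0.45 the highest), Fosb (-2.18, highest 0.96), Fosl2 (-0.069, highest 0.51) and Jun (-0.25 and -0.09, highest 0.85). For the interaction they were Fosl2 (-0.30, -0.08, -0.09, -0.04 and -0.0086, highest 0.29), Jun (-0.29, highest 0.80) and Atf3 (0.060, lowest -0.70). In NTC livers with CCl4 it was Jund (-0.020, highest 0.39). Depth limits Fosb and Fosl1 in vehicle livers, where 3 counts are 0.0807 to 0.112 CPM. The Myc call in NTC livers was lost without a filter (adjusted p = 0.0827) and in a fit of only the groups compared (adjusted p = 0.0724), both by edgeR.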
